A study of Drosophila melanogaster with 2 samples.

Results

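Pcl peaks were examined over 3 groups of neighbouring transcription factor genes on chromosome arm 3L of Drosophila melanogaster: the Doc complex (Doc1, Doc2 and Doc3), the Iroquois complex (ara, caup and mirr) and the knirps complex (knrl and kni). Members were chosen by position: a peak belonged to a complex when its centre lay on 3L between 8990000 and 9070000 (Doc), 12540000 and 12720000 (Iroquois) or 20590000 and 20720000 (knirps), in coordinates of build BDGP5. These windows of 80, 180 and 130 kb held 30 of the 2457 peaks in the list and 30 of the 508 peaks on 3L. The windows tie peaks to a complex and not to a single gene of it, because the gene table at hand belongs to another build.

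The study mapped Polycomb-like (Pcl) by ChIP-seq in whole embryos collected over 0 to 8 h. The ChIP sample used an antibody against Pcl named KW4-Pcl-D2 and its title names 3 replicates together; a single peak list represents it, so no value below has a replicate error. The reference was DNA from the chromatin input, a sample without a peak list of its own. The protocol names iso1 (y; bw cn sp) or transgenic flies as sources of embryos and does not say which were used for this sample, and no treatment was given. Read numbers are not in the list, so the depth behind each peak is unknown. Whole embryos mix many cell types over several developmental stages, so strong binding in few cells and weaker binding in many cannot be told apart.

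Pcl is a partner of Polycomb repressive complex PRC2, which methylates lysine 27 of histone H3 and keeps developmental regulators silent where they are not needed. In flies such complexes are recruited by short DNA elements named Polycomb response elements, and a regulated locus can hold several of them. The 3 Doc genes encode T-box transcription factors needed for the amnioserosa and the dorsal vessel, the heart tube of the fly. The Iroquois genes encode homeodomain proteins of the TALE class: ara and caup prepattern the sensory organs of the notum and the wing veins, and mirr acts in dorsal-ventral patterning of the eye and the egg. The gene kni is a gap gene that patterns the abdomen of the early embryo and later acts in tracheae and the second wing vein, where its paralog knrl has overlapping roles; both encode DNA-binding proteins of the nuclear receptor type. In the RefSeq gene table the genes run, by ascending position, Doc3, Doc2 and Doc1 with CG5194 between Doc3 and Doc2, then ara, caup and mirr with no other protein-coding gene between them, then knrl and kni with CG13251 between them.

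The complexes differed in the number of peaks. The Doc window held 9 peaks, the Iroquois window 17 and the knirps window 4. Per length of window this came to 112.5 peaks per Mb for Doc, 94.4 for Iroquois and 30.8 for knirps. The rest of the span of 3L held 21.3 per Mb. With peaks joined across gaps under 1 kb, the 80 kb Doc window held 5 regions and the 180 kb Iroquois window 15. Per length of window, Iroquois was then denser than Doc. This order depends on the window edges, since the peaks spanned 46.6 kb of the Doc window and 157 kb of the Iroquois window. Before joining, there were 19.3 peaks per 100 kb of this span at Doc and 10.8 at Iroquois. Peaks covered 13.4% of the Doc window, 9.20% of the Iroquois window and 3.55% of the knirps window, whereas 1.97% of the rest of 3L was covered. The knirps window was thus sparse beside the Doc and Iroquois windows, though above the rest of the arm in both measures, and the Doc and Iroquois windows had several times the peak density of the arm around them.

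The windows were set beside all consecutive bins of the same length on the 5 large arms, as a description, since the complexes were picked with earlier results of these data known. Of 1439 bins of 80 kb, 1.6% held at least the 9 peaks of the Doc window, and the median bin held 1. Of 642 bins of 180 kb, 1.4% held at least the 17 peaks of the Iroquois window, with a median of 3. Of 887 bins of 130 kb, 28.1% held at least the 4 peaks of the knirps window, with a median of 2. The Doc and Iroquois windows were among the fullest stretches of their length, and the knirps window was not. When peaks with gaps under 1 kb were joined in windows and bins alike, an alternative chosen after the data were seen, the share became 6.39% for Doc, whose window then held 5 regions, and 0.935% for Iroquois, whose window then held 15. For knirps, joining gave a share of 24.5%, with 4 regions in its window. Counting only peaks scoring at least 100 was likewise not planned. The shares were then 2.25% for Doc (4 such peaks), 1.57% for Iroquois (7 such peaks) and 16.3% for knirps (2 such peaks).

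**Figure D1:**
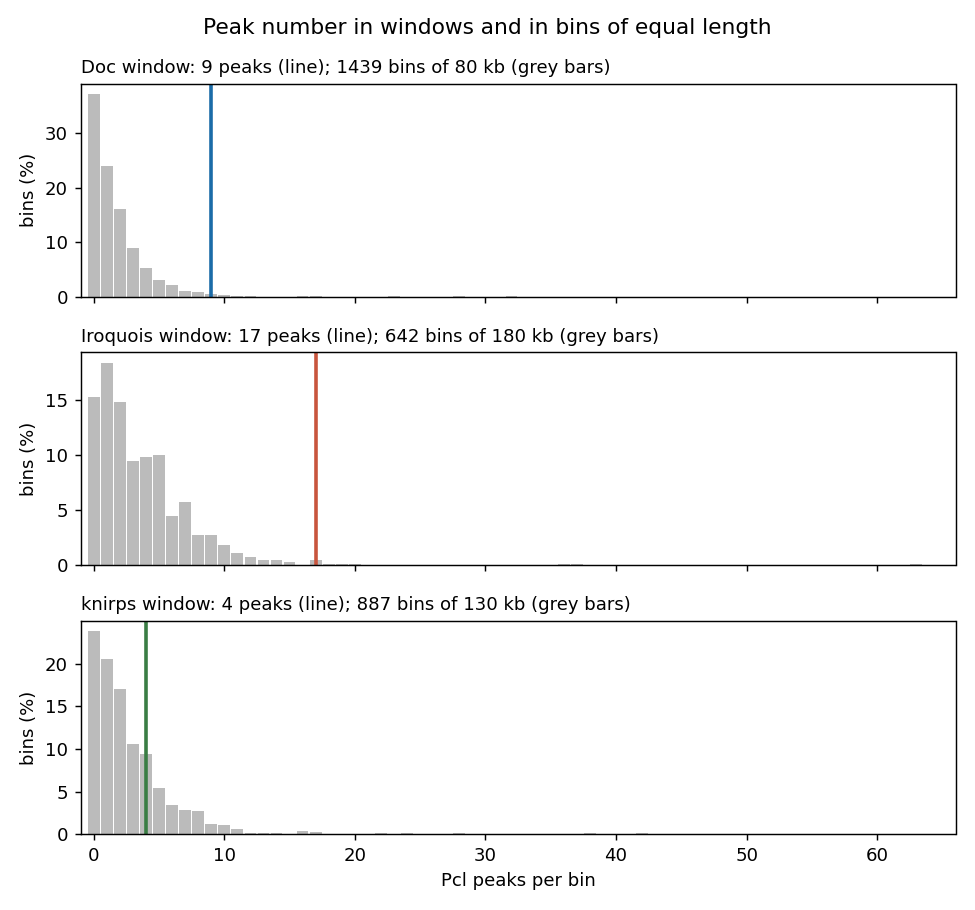
Number of Pcl peaks per bin (horizontal axis) against the percentage of bins with that number (vertical axis, grey bars), for bins as long as each window on arms 2L, 2R, 3L, 3R and X; the coloured line marks the window of the complex. The lines for Doc at 9 peaks and for Iroquois at 17 lie in the far right tail, and the line for knirps at 4 lies within the body of the bins.

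The arrangement of the peaks differed as well. The Doc peaks spanned 46.6 kb, the Iroquois peaks 157 kb and the 4 knirps peaks, which stood far apart, 95.7 kb. With gaps under 1 kb joined, Doc gave a tight run of 5 peaks followed by 4 separate peaks. Iroquois gave 15 regions, 13 of them single peaks, and knirps 4 single peaks. With gaps under 10 kb joined, Doc gave 2 regions, of 6 and 3 peaks, and Iroquois 6 regions, 2 of them single peaks. The knirps peaks then lay in 4 regions, 3 of them single peaks. In the text below, peaks of a window are numbered by ascending position. The score is the value the authors' peak caller MACS gave each peak, on a scale the file does not state, and a rank of 1 is the highest score of the list.

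**Figure D2:**
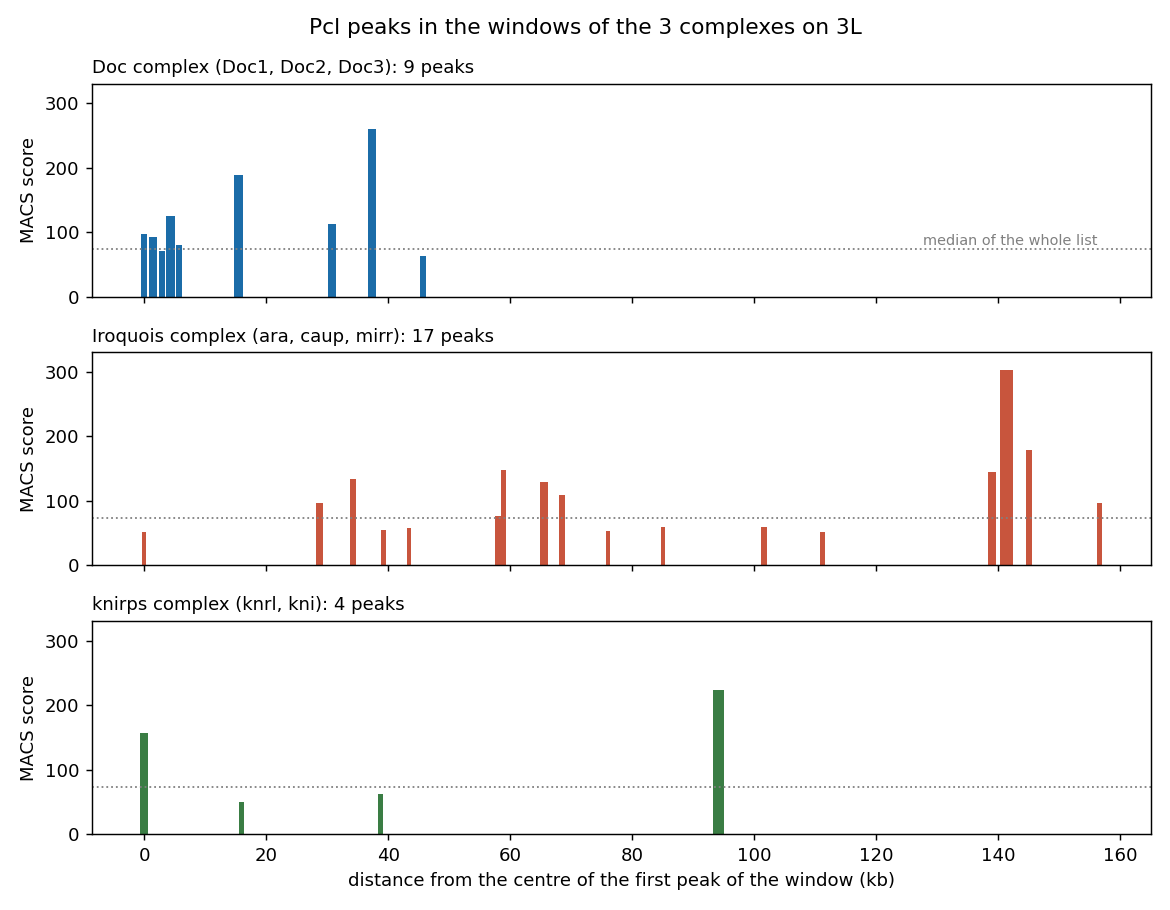
Pcl peaks of the 3 windows, drawn to scale: the horizontal axis is the distance in kb from the centre of the first peak of each window, each bar is 1 peak as wide as the peak itself, and its height is the MACS score; the dotted line is the median score of the whole list, 73.6. The Doc panel shows 5 bars close together at the left and its highest bar, 259, at 37.3 kb, the Iroquois panel its highest bars between 139 and 145 kb, and the knirps panel 2 high bars at its ends with 2 low bars between them.

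At the Doc genes, the first 5 peaks formed a run from 8996377 to 9003062. Peaks covered 83.5% of these 6.69 kb, and the gaps between them were only 215 to 346 bp. The 5 scores in map order were 97.9, 92.8, 71.3, 124.65 and 80.4, so 4 of the 5 exceeded the list median of 73.6 and 1 of them passed 100. The widths in the same order were 873, 1329, 1059, 1342 and 983 bp. The 4 distances between centres were nearly equal, at 1447, 1475, 1415.5 and 1420.5 bp (mean 1439.5 ± 27.4 bp, SD over the 4 distances).

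Such runs were rare in the list. Joining peaks with gaps under 1 kb gave 2122 regions on the 5 large arms, and 6 of them held at least 5 peaks. The Doc run was 1 of these 6, and the other 5 lay in a single stretch of 3R, between 12502227 and 12791176. By length the joined Doc region ranked 13 of 2122. The Doc run had the lowest top score of the 6, 124.65, whereas the top scores of the 5 runs on 3R were between 389 and 1496. By median score it was not the lowest: the median was 92.8 in the Doc run, against 68.2 to 276 in the runs on 3R, of which 2, at 68.2 and 85.6, lay below it. Its spacing was also the most even of the 6: the longest centre distance was 1.04 times the shortest, against 1.31 to 3.63 times in the runs on 3R. With 4 to 8 distances in a run and the runs picked from this list, these ratios are a description.

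The Doc peaks with the highest scores lay outside the run. Peak 8, at 9033507 to 9034769, scored 259 (rank 134 in the list and 17 on 3L) and was 1263 bp wide. Peak 6, at 9011487 to 9012976, scored 188 (rank 204) and was the widest of the complex with 1490 bp. Peak 7, at 9026909 to 9028347, scored 112 (rank 539), and the last, peak 9 at 9042032 to 9042951, scored 63.5 (rank 1647). Distances between these centres were 15.4, 6.51 and 8.35 kb, and the centre of peak 6 lay 9.66 kb from that of peak 5. The 4 separate peaks therefore carried both the highest and the lowest score of the complex, and the run held intermediate values.

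At the Iroquois genes, the highest score belonged to a close triplet of peaks near the upper end of the window. Peak 15, at 12685026 to 12687134, had the highest score of all 30 peaks, 303 (rank 110 in the list and 10 on 3L), and with 2109 bp was also the widest of them. Peak 14, at 12683033 to 12684387, scored 144 (rank 337), and peak 16, at 12689364 to 12690328, scored 178 (rank 223). These 3 peaks covered 60.7% of 7.30 kb. The single peak after them, peak 17 at 12700888 to 12701825, was the last of the window and scored 96.6 (rank 724).

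A broader group of Iroquois peaks lay in the lower part of the window and was put together here for description. Within it, 13647 bp without a peak parted peak 5 from peak 6, and 15681 bp without a peak followed peak 11. Peaks 2 to 11 lay within 57.1 kb, where they covered 15.2% of the length and had a median score of 86.7, with values of 53.9 to 147. The highest was peak 7, at 12603188 to 12604128, which scored 147 (rank 326); it was separated from peak 6, which scored 77.2, by 32 bp. Peak 3, at 12578551 to 12579439, scored 133 (rank 393), peak 8 scored 129 and peak 9 scored 109. The remaining 5 of these 10 peaks scored between 53.9 and 96.1. Peaks with scores above 100 were thus interspersed with peaks near the lower limit of the list along this stretch.

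Of the Iroquois peaks outside these groups, 3 had low scores, whereas peak 17 scored 96.6. Peaks 12 and 13, which lay alone between the lower group and the upper triplet, scored 60.3 and 52.2, and 26648 bp without a peak followed them. The first peak of the window, at 12544397 to 12545056, scored 51.7 (rank 2336) and was separated from the next by 27.9 kb, the longest gap of the complex. Scores below 60 were found for 6 of the 17 Iroquois peaks, 0 of the 9 Doc peaks and 1 of the 4 knirps peaks, where 26% of the whole list scored so low.

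At the knirps genes, the first and the last peak of the window had the highest scores. A peak outside the window, scoring 81.7, lay 9.22 kb before the first. Peak 4, at 20685726 to 20687475, scored 224 (rank 158 in the list and 20 on 3L) with a width of 1750 bp. Peak 1, at 20591762 to 20593007, scored 156 (rank 275) with a width of 1246 bp. The 2 peaks between them were narrower and lower: peak 2, at 20607926 to 20608689, scored 50.5 (rank 2417) with 764 bp, and peak 3, at 20630678 to 20631533, scored 62.1 (rank 1701) with 856 bp. The centres of peaks 1 and 4 were 94.2 kb apart, and 54.2 kb of this, between peaks 3 and 4, held no peak.

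Widening each window by 20 kb added a peak to the knirps complex alone. A peak at 20581527 to 20582541, which scored 81.7 and was 1015 bp wide, had its centre 7.97 kb before the knirps window and lay 9.22 kb from its first member. The next peak after the knirps window was 95.7 kb from its last member and scored 54.7. The nearest peaks outside the Doc window were 45.8 kb before its first member and 46.7 kb after its last member, with scores of 54.4 and 94.4; the centre of the second of these was 20.04 kb outside the window. Those outside the Iroquois window were 34.0 kb before and 104 kb after, with scores of 66.6 and 56.2. The Doc and Iroquois peaks were thus set off from the next peaks of 3L by stretches longer than any gap within them, and those of knirps were not on their lower side.

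Neighbouring peaks were closest at Doc and farthest apart at knirps. Median distances between neighbouring centres were 3.99 kb at Doc (8 pairs), 7.09 kb at Iroquois (16 pairs) and 22.8 kb at knirps (3 pairs). The median was 24.5 kb on the rest of 3L (474 pairs) and 17.7 kb on the 5 large arms outside the windows (2376 pairs). Centres were under 10 kb apart in 7 of 8 Doc pairs, 11 of 16 Iroquois pairs and 0 of 3 knirps pairs, against 39.4% of the pairs on the 5 large arms outside the windows. Centres under 5 kb apart were found for 4, 5 and 0 pairs, with 27% outside. The order of Doc and Iroquois rested on the Doc run: with gaps under 1 kb joined, the median was 10.4 kb at Doc and 8.30 kb at Iroquois, and it was 11.1 kb and 5.18 kb among peaks scoring at least 100. The knirps peaks had the longest median distance in each of these settings.

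**Figure D3:**
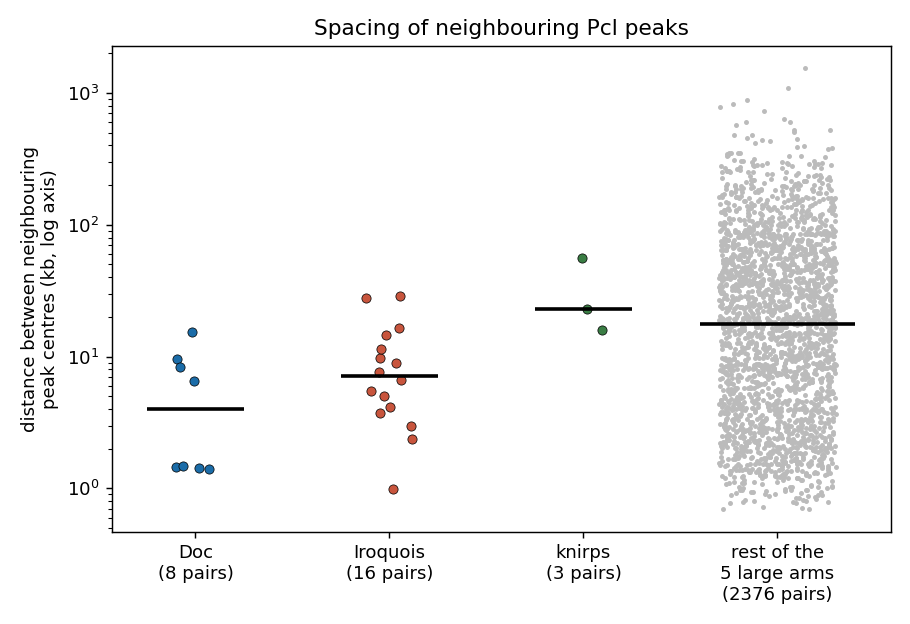
Distance between the centres of neighbouring Pcl peaks (vertical axis, kb, log scale) for the pairs of each complex and for the pairs of the 5 large arms outside the windows; each point is 1 pair and each black line a median. The Doc pairs split into 4 near 1.4 kb and 4 between 6.51 and 15.4 kb, the Iroquois pairs run from 0.984 to 28.8 kb, and the 3 knirps pairs are at 15.9 kb or more.

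Scores of the complexes overlapped widely. The median score was 97.9 at Doc (range 63.5 to 259), 96.1 at Iroquois (51.7 to 303) and 109 at knirps (50.5 to 224), and 96.3 over all 30 peaks against 74.4 on the rest of 3L. In each complex 1 peak scored at least 200, that is 3 of 30 peaks where 7.45% of the whole list did. A score of 100 or more was seen for 4 of 9 Doc, 7 of 17 Iroquois and 2 of 4 knirps peaks, where 27.3% of the list did so. Of the 30 peaks, 19 were among the 1228 highest of the 2457 peaks of the list and 5 among the 245 highest. The list held far higher peaks elsewhere, since their best rank was 110 and the best score 303, against 989 for the rest of 3L and 2377.39 for the whole list. The complexes could not be ordered by median score: the 95% exact intervals of the median, which treat peaks as independent, were 71.3 to 188 at Doc and 58.3 to 133 at Iroquois, and 4 peaks are too few to give one for knirps.

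Doc peaks were wide. The median width was 1263 bp at Doc (95% exact interval 920 to 1439 bp, range 873 to 1490 bp), 941 bp at Iroquois (780 to 996 bp, range 571 to 2109 bp) and 1051 bp at knirps (range 764 to 1750 bp), whereas it was 831.5 bp on the rest of 3L. A width of at least 1000 bp was found for 6 of 9 Doc, 4 of 17 Iroquois and 2 of 4 knirps peaks, where 29.7% of the list was as wide. The narrowest Doc peak, with 873 bp, exceeded the median of the whole list, 830 bp. The intervals of Doc and Iroquois, which treat peaks as independent, overlapped. The Iroquois peaks covered the whole scale, from the narrowest of the 30 peaks (peak 11, with a score of 59.3) to the widest (peak 15).

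Wider peaks have higher scores in this list, so each width was also set beside the median width of the 20 peaks nearest in score on the 5 large arms outside the windows. Doc peaks were wider than these in 7 of 9 cases, and the median ratio was 1.26 (range 0.780 to 1.48). The exceptions were the highest Doc peak, number 8, and the first. Iroquois peaks were wider in 9 of 17 cases (median ratio 1.01, range 0.681 to 1.39) and knirps peaks in 4 of 4 (median ratio 1.14, range 1.05 to 1.36). By the same measure 50.2% of the peaks of the arms outside the windows were wider than their 20 nearest in score.

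**Figure D4:**
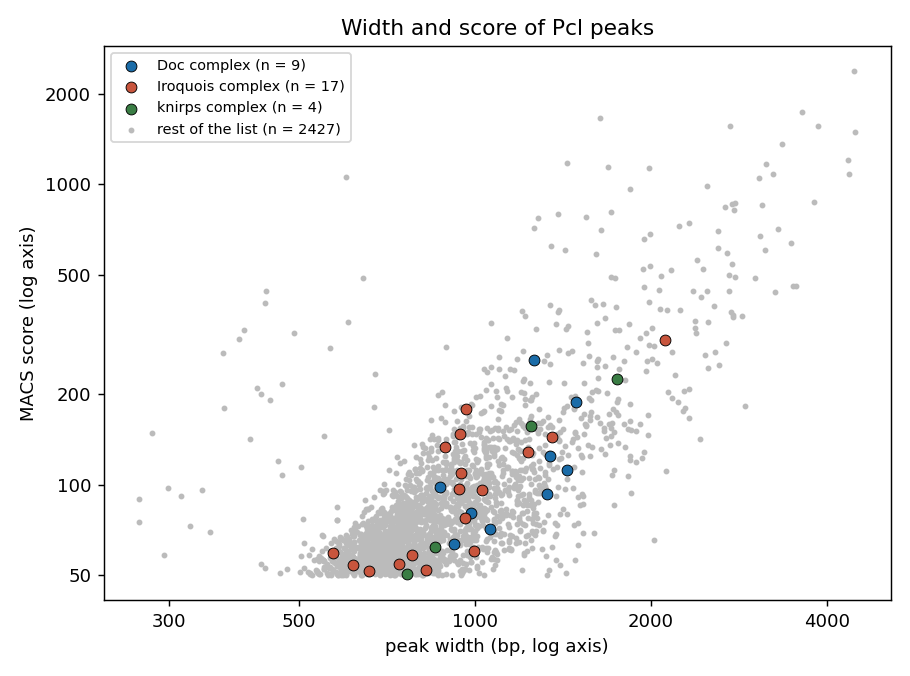
Width (horizontal axis, bp, log scale) and MACS score (vertical axis, log scale) of the 30 peaks of the complexes (coloured) and of the other 2427 peaks of the list (grey); each point is 1 peak. The Doc peaks begin at 873 bp, the Iroquois peaks reach from 571 to 2109 bp, and no coloured point scores above 303.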

How the data were processed

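Each value comes from 1 deposited list of peaks for the Pcl ChIP sample. Per the submitters' processing notes, Bowtie and build BDGP5 were used; per the file headers, peaks were called with MACS. Versions, settings and the combining of replicates were not given in the sources used here. A deposited score is the caller's value, the authors' and not an occupancy, and it was used only within this list. Starts were converted to 1-based positions. Gaps are edge to edge and distances are between centres. Ranks give ties the better rank. Intervals of medians are 95% exact binomial intervals from ordered values and cover counting only. Bins ran from the start of each arm to its last peak and include the windows. Nothing was compared by a test, since 1 list without replicates allows none over samples. The members, windows and lists were chosen with earlier results of these data known. Peaks given in full are the 5 highest of each window, the first, the last and any scoring at least 200; for the Doc run and its neighbours, chosen after their values were seen, all peaks are given. Gene order came from a RefSeq table of Release 6, in which 8 of 8 genes matched by symbol; its coordinates were not used here. Protein identity, peak sequence and promoter motifs were not analysed here. Functions were tested on simulated data. Python 3.11.15, pandas 2.3.3, numpy 2.4.6, scipy 1.17.1 and matplotlib 3.10.9 were used.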

Additional observations from a re-analysis of the deposited data

How the results depend on the processing

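Each number and median was recomputed under 5 other settings. At knirps the medians of so few peaks have no interval, and at Doc the interval of the median distance is as wide as the range. Staying within the range therefore says nothing about stability in these cases. With a minimum score of 100 the numbers of peaks were 4 at Doc, 7 at Iroquois and 2 at knirps, the median score at Iroquois was 144 and the median distance 94.2 kb at knirps and 11.1 kb at Doc, which follows from keeping fewer peaks. A minimum of 60 left 11 Iroquois peaks and a knirps distance of 47.1 kb, and joining gaps under 1 kb left 5 Doc regions with a distance of 10.4 kb. Iroquois had the most and knirps the fewest peaks under all 5. By median width Doc came first, except with a minimum score of 100 (1390.5 bp at Doc, 1498 bp at knirps). By median score the order changed with a minimum of 60, joined gaps and windows widened by 20 kb; the last added 1 knirps peak and gave that complex a median of 81.7. Membership by any overlap with a window left these values as they were. The alignment of proteins was not run, as no sequences were used here. Single replicates could not be left out. No paired analysis was possible because 1 list stands for all replicates. No peak scores below 50.01, so binding at sites with lower scores could not be examined, and the depth is unknown.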

Other observations

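In each complex the peak with the highest score lay toward the end with the higher coordinates. Counted from the centre of the first to the centre of the last peak, it stood 81.7% of the way along at Doc, 90.2% at Iroquois and 100% at knirps. The second highest score was 21.9 kb from it at Doc, 3.77 kb at Iroquois and 94.2 kb at knirps. The 3 positions were seen only after the peaks had been mapped and were not tested. Within any 20 kb the Doc window held at most 6 peaks, the Iroquois window at most 5 and the knirps window at most 2.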
